A study of Mus musculus with 18 samples.

Results

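The first day of fracture repair was compared between old and young mice, using every array whose label places it 1 day after fracture. These are 6 of the 18 arrays of the study: 3 of old and 3 of young mice. All groups were female mice with a fracture of the femur, whose callus, the repair tissue around the break, was dissected on day 1, 3 or 5 and profiled on Affymetrix whole-genome mouse arrays. The old group consisted of retired breeders aged 8 months and the young group of mice aged 6 weeks, so that breeding history and skeletal maturity go with age and cannot be told apart from it. No treatment, mutation or transgene is given for any group, and the labels disagree on the strain, which is BALB/c in the sample fields and a C57BL/6 line in the description of the design. The labels do not say whether each of the 3 arrays in a group stands for a different mouse. The p-values therefore reflect array-to-array spread, part of which could be technical.

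A fracture first fills with a haematoma, in which neutrophils and then macrophages clear debris and release cytokines. Cells of the periosteum, marrow and surrounding muscle then divide, lay down a collagen-rich granulation tissue and later form cartilage and bone. The collagens of that tissue are made as precursors, hydroxylated inside the cell, trimmed by proteases outside it and cross-linked into fibrils, and small proteoglycans set the thickness of the fibrils. In old animals fracture repair is known to be slower.

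A level below is log2(signal + 16) after quantile normalisation of the 18 arrays, a difference is old minus young on that scale, where 1 is a doubling, and a fold is the same difference without the logarithm. Since 16 is added to each signal, folds of dim genes are understated. A gene is represented by its brightest tested probe set, and it is called where limma's moderated test, fitted to all 18 arrays with Benjamini-Hochberg adjustment over 27746 probe sets, gave an adjusted p under 0.05. In bulk tissue, fewer cells of a type and less RNA in each cell cannot be told apart.

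On day 1 the genes called were mostly lower in old callus, and 4 of them (Aspn, Fap, Col1a2 and Lum) belong to a list of 26 measured connective tissue matrix genes described further on. Of 27746 probe sets, 64 (0.231%) were called, 56 lower and 8 higher. Of 12921 genes, 28 (0.217%) were called lower and 3 (0.0232%) higher. The 28 differences ran from -2.06 to -0.93 with a median of -1.42, beside a median of -0.031 over all genes. All 3 old arrays lay below all 3 young arrays for 931 genes (7.21%) and above them for 707 genes (5.47%). The 31 called genes belong to these sets, and the young arrays did not overlap the old ones for any of them.

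Among the genes called lower were Col1a2 and 2 enzymes that act on collagen, Plod2 and Bmp1, set side by side here after the calls were seen. Col1a2 encodes the α2 chain of type I collagen, the main fibre of bone and scar. Its level was 12.23, 12.35 and 12.54 in old replicates 1, 2 and 3 and 13.62, 13.48 and 13.86 in young replicates 1, 2 and 3. Every old array was thus below every young array, and the difference was -1.28 ± 0.25 (SE, n = 3 a group; limma, adjusted p = 0.0446), a 2.42-fold lower level. Another called Col1a2 probe set gave -1.66 ± 0.27, while the third had a difference of -0.27. Plod2, a lysyl hydroxylase that prepares collagen for cross-linking, was at 7.98, 8.43 and 9.06 in old and 9.93, 9.38 and 10.32 in young callus, a difference of -1.39 ± 0.27 (limma, adjusted p = 0.0446). Its highest old array, replicate 3, was still below the lowest young array, while its other probe set differed by -0.62 ± 0.24 with overlapping groups (limma, adjusted p = 0.297). Bmp1, the protease that removes the C-terminal propeptide of fibrillar procollagens, was at 5.92, 6.88 and 6.92 in old and 7.96, 7.92 and 8.40 in young callus and was lower by 2.86-fold (-1.52 ± 0.26; limma, adjusted p = 0.0211). Its other probe set, at -1.40 ± 0.32, was not called.

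**Figure D1:**
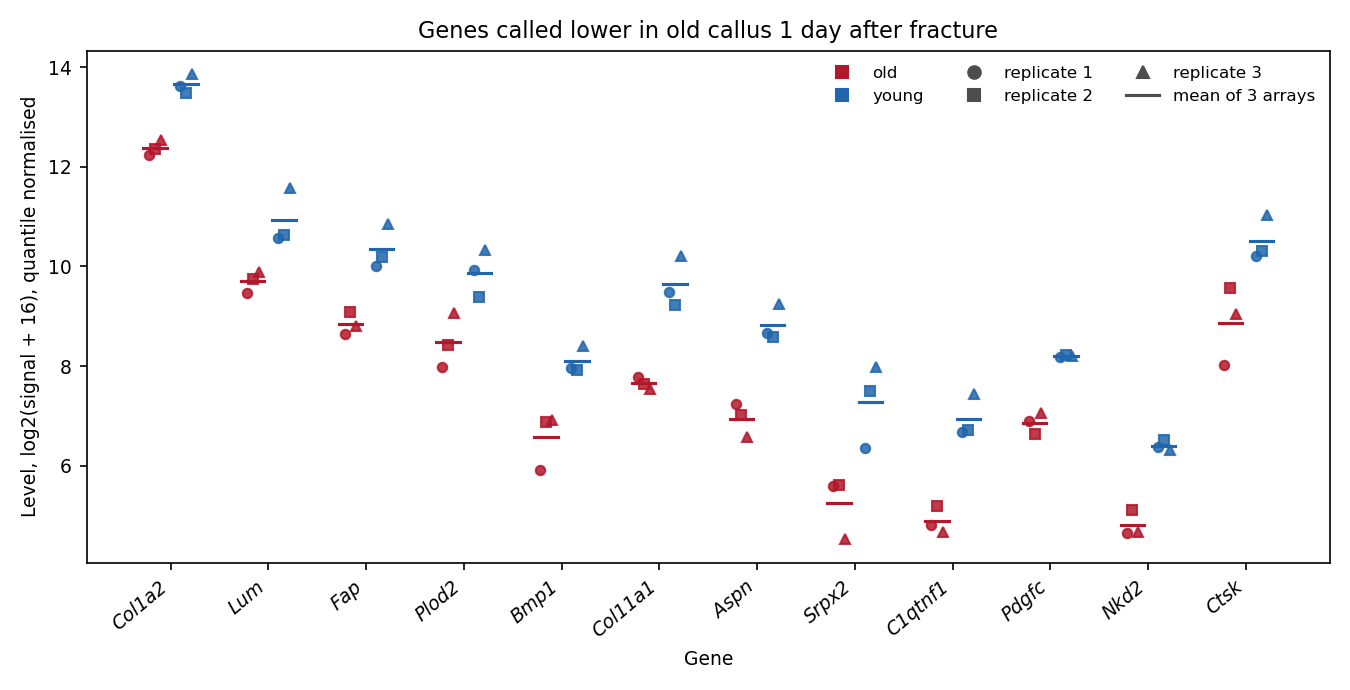
Level, as log2(signal + 16), of 12 genes called lower in old callus on day 1, for each of the 3 old (red) and 3 young (blue) arrays, with a bar at the group mean and a symbol for each replicate. For each gene the 3 old arrays lie below the 3 young arrays, as for Col1a2 at 12.23 to 12.54 against 13.48 to 13.86.

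Col11a1 and the proteoglycan genes Aspn and Lum were called lower as well. Col11a1, a minor collagen that nucleates fibrils in cartilage and young connective tissue, was at 7.78, 7.63 and 7.54 in old and 9.48, 9.23 and 10.21 in young callus. The old arrays lay close together and below every young array, and the difference was -1.99 ± 0.35 (limma, adjusted p = 0.0223), a 3.97-fold lower level, with a second probe set called at -2.29 ± 0.29. Aspn encodes asporin, a small leucine-rich proteoglycan that binds collagen and TGF-β. It was at 7.24, 7.02 and 6.58 in old and 8.66, 8.58 and 9.24 in young callus, a difference of -1.88 ± 0.32 (limma, adjusted p = 0.0214), and its other probe set, at -1.42 ± 0.38, was not called. Lum, which encodes lumican, a related proteoglycan that regulates fibril assembly, was at 9.46, 9.75 and 9.88 in old and 10.57, 10.63 and 11.58 in young callus, where replicate 3 stood above the other 2 young arrays. The difference of Lum was -1.23 ± 0.23 (limma, adjusted p = 0.0333).

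Fap, Srpx2, C1qtnf1 and Pdgfc, which encode a surface protease and 3 secreted proteins, were also called lower. Fap, a surface protease of activated fibroblasts, was at 8.64, 9.08 and 8.81 in old and 10, 10.19 and 10.86 in young callus, without overlap between the groups and with a difference of -1.50 ± 0.26 (limma, adjusted p = 0.0211). Srpx2, a secreted sushi-repeat protein, was at 5.60, 5.62 and 4.52 in old and 6.35, 7.49 and 7.99 in young callus and differed by -2.03 ± 0.36 (limma, adjusted p = 0.0237). C1qtnf1, a secreted relative of complement C1q, was at 4.82, 5.19 and 4.66 in old and 6.68, 6.71 and 7.44 in young callus. Its difference of -2.05 ± 0.27 had the lowest adjusted p of the 31 genes (limma, adjusted p = 0.0108), but its second probe set differed by -0.21. The old arrays of C1qtnf1 were near 4, the value that a signal of 0 gives before normalisation. Its second probe set was near it on every array of day 1, at 4.30 to 5.28. Some or all old arrays of Srpx2 and, of genes given below, Nkd2 (4.64 to 5.11), Ngef (4.19 to 4.63), Cep41 and Abca3 were near it too. Pdgfc, a platelet-derived growth factor for mesenchymal cells, was at 6.90, 6.63 and 7.06 in old and 8.19, 8.23 and 8.21 in young callus, and both of its probe sets were called (-1.35 ± 0.21 with limma, adjusted p = 0.0173, and -1.59 ± 0.32). The 3 young arrays of Pdgfc lay close together (SD 0.02).

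Ctsk and the Wnt inhibitor Nkd2 were also among the genes called lower. Ctsk, the collagen-degrading cathepsin of osteoclasts, which stromal cells can also make, was at 8.02, 9.56 and 9.04 in old and 10.21, 10.30 and 11.04 in young callus, a difference of -1.64 ± 0.32 (limma, adjusted p = 0.0453). Old replicate 1 was the lowest of the 6 arrays, and the groups did not overlap. Nkd2, which binds Dishevelled and dampens Wnt signalling, was at 4.64, 5.11 and 4.66 in old and 6.37, 6.52 and 6.32 in young callus (-1.60 ± 0.24; limma, adjusted p = 0.0151), while its other 3 probe sets differed by -0.97 to -0.21 with overlap between the groups.

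The remaining genes named by size of difference have other functions. Abca3, a lipid transporter, differed by -2.06 ± 0.39, and its 3 old arrays were spread from 4.38 to 6.62. Another Abca3 probe set was at 0.19, so its probe sets disagreed in direction. Cep41, a centrosomal protein, differed by -1.76 ± 0.30, Ngef, a guanine nucleotide exchange factor, by -1.76 ± 0.27, Snx7, a sorting nexin, by -1.70 ± 0.25, Pex14, a peroxisomal import protein, by -1.69 ± 0.29, and Mxd4, a partner of MAX, by -1.46 ± 0.28. Of the other Mxd4 probe sets, 1 differed by -1.17 without a call and the other 2 were at 0.14 and -0.02 with overlapping groups. Limma's adjusted p for these ran from 0.0148 for Snx7 to 0.0405 for Abca3 and Mxd4. The other genes called lower, named after their values were seen, were Sema5a, Cby1, Rabl2, Rrp9, Dhrs7b, Msantd2, 2700081O15Rik, Lifr, Ryk and Tmem218, with differences from -1.39 for Sema5a to -0.93 for Tmem218. Lifr, the receptor of leukaemia inhibitory factor, differed by -1.06 ± 0.20, and Ryk, a Wnt receptor, by -1.05 ± 0.21.

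The 3 genes called higher in old callus were in none of the 46 lists with at least 5 measured genes. Epb41l5, a regulator of cell junctions and polarity, was at 6.75, 6.79 and 6.15 in old and 5.10, 5.21 and 4.53 in young callus (1.62 ± 0.27; limma, adjusted p = 0.0211). Chrm1, a muscarinic acetylcholine receptor, was at 7.42, 7.56 and 7.42 in old and 5.77, 6.47 and 6.27 in young callus (1.30 ± 0.25; limma, adjusted p = 0.0407). Zfp239, a zinc finger gene, was at 7.56, 7.04 and 6.89 in old and 5.98, 6.21 and 6.01 in young callus (1.10 ± 0.21; limma, adjusted p = 0.0405). For each, the lowest old array was above the highest young array.

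Of the 64 called probe sets, 56 have a single listed gene, 7 have none and 1 has several. They stand for 52 genes, of which 31 were called on the brightest probe set and 21 only on a dimmer one. Among the latter, named after their values were seen, the collagen gene Col5a1 had a dimmer probe set at 4.52, 4.80 and 5.73 in old and 7.82, 7.70 and 8.07 in young callus (-2.85 ± 0.49; limma, adjusted p = 0.0211), while its brightest differed by -1.26 ± 0.42 and was not called. Sparc, a collagen-binding matrix protein, had a dimmer probe set at -1.30 ± 0.26 (limma, adjusted p = 0.0446) and its brightest at -0.86 ± 0.24. Ccn4, a matricellular protein induced by Wnt signals, was at -2.01 ± 0.32 (limma, adjusted p = 0.0183) and at -1.41 ± 0.42. In the others of these 21 genes the brightest probe set was closer to 0 or went the other way, from -0.56 for Ccdc80 to 0.72 for Ntmt1. It was also above 0 for 2310067E19Rik (0.66), Mvb12a (0.56), Foxm1 (0.35) and Mrpl1 (0.23). Little difference was left for Sh3bp5 (-0.01), Slc39a10 (-0.03), Stom (-0.03) and Urm1 (-0.09). Over all 52 genes, several probe sets were tested for 36, and in 24 of them all pointed in 1 direction.

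The call counts rested on the size of the reference for the spread and on single arrays. With the 6 arrays of day 1 alone limma called 0 probe sets, with 2060 at an unadjusted p under 0.05, against 3373 in the fit to 18 arrays. Without young replicate 3, whose score on the matrix list was the highest of the 6 arrays, 10 were called, and without old replicate 2 the count was 322. All 64 differences kept their direction in these 3 fits.

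Promoter sequences are shown for Col1a2, Col11a1 and Aspn, as examples of matrix genes that were lower together and differ in whether the CCAAT box, a common promoter element, occurs near the start. The sequences are the 130 bases before the annotated start of transcription in RefSeq, build GRCm38.p6, on the plus strand, at chr6:4505488-4505617 for Col1a2, chr3:114030410-114030539 for Col11a1 and chr13:49544313-49544442 for Aspn, 5′ to 3′, with the letters CCAAT, or ATTGG where it lies on the other strand, in capitals.
Col1a2: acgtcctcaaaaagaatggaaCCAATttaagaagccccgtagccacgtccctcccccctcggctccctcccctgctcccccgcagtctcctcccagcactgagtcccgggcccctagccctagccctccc
Col11a1: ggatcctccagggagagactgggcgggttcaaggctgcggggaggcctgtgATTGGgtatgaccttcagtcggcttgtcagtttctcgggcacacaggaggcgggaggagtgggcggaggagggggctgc
Aspn: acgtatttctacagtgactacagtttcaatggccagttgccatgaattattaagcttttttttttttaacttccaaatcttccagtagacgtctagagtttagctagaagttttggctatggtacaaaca
The match lies 109 bases before the start in Col1a2 and 79 bases before it in Col11a1, and none lies in the stretch shown for Aspn. Promoters were matched by symbol for 23 of the 28 genes called lower, 25 promoters in all. In the 250 bases before the start, 12 of the 25 (48.0%) held CCAAT on either strand, beside 33.8% of 32851 promoters of all genes, and 4 (16%) held TATAA, beside 22.8%. For the connective tissue matrix list described next, only 12 of 26 genes were matched, with 15 promoters. Of these, 2 (13.3%) held CCAAT and 6 (40%) held TATAA. A match is a description of the letters and not a site of binding.

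The connective tissue matrix list, 27 genes of fibroblasts and granulation tissue, held 26 measured genes. Like the other lists, it was chosen with earlier results of these data known. Its counts beside those of all genes therefore describe the list and are not a test. Of these, 4 (Aspn, Fap, Col1a2 and Lum) were called lower and 0 higher, beside 0.217% of all genes, and 17 had all old arrays below all young arrays, beside 7.21% of all genes. Of the 26, 23 differences were below 0, the median was -0.90, and the range ran from -1.88 for Aspn to 0.26 for Col14a1. Over all genes, the median was -0.031 and 54.3% were below 0. Col1a1, the other chain of type I collagen, was at 11.57, 11.70 and 12.09 in old and 13.01, 13.04 and 13.68 in young callus, and the difference of -1.46 ± 0.35 was not called (limma, adjusted p = 0.0963). The fibril collagen Col5a2 (-1.34 ± 0.29; limma, adjusted p = 0.0604) and the fibril-associated Col12a1 (-1.45 ± 0.39; limma, adjusted p = 0.135) also missed the threshold, with the old arrays below the young ones in both. Thy1, a fibroblast surface marker, differed by 0.04 ± 0.28, Pdgfra, a receptor of mesenchymal progenitors, by -0.40 ± 0.22 and Fn1, which encodes fibronectin, by -0.39 ± 0.41, and the groups overlapped for all 3.

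Summed over the list, the signal was 29900, 34100 and 39800 in old replicates 1 to 3 and 66100, 66600 and 113000 in young replicates 1 to 3. The list score, the median over the members of their log2 deviation from their average over the 6 arrays, was -0.53, -0.40 and -0.32 in old and 0.18, 0.28 and 0.83 in young callus. No old array reached a young one, and young replicate 3 stood highest. The number of members called lower was 1 without old replicate 1, 2 without old replicate 3 and 0 without young replicate 3, and the median ran from -1.11 to -0.65 over the 6 fits that leave out 1 array of day 1.

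**Figure D2:**
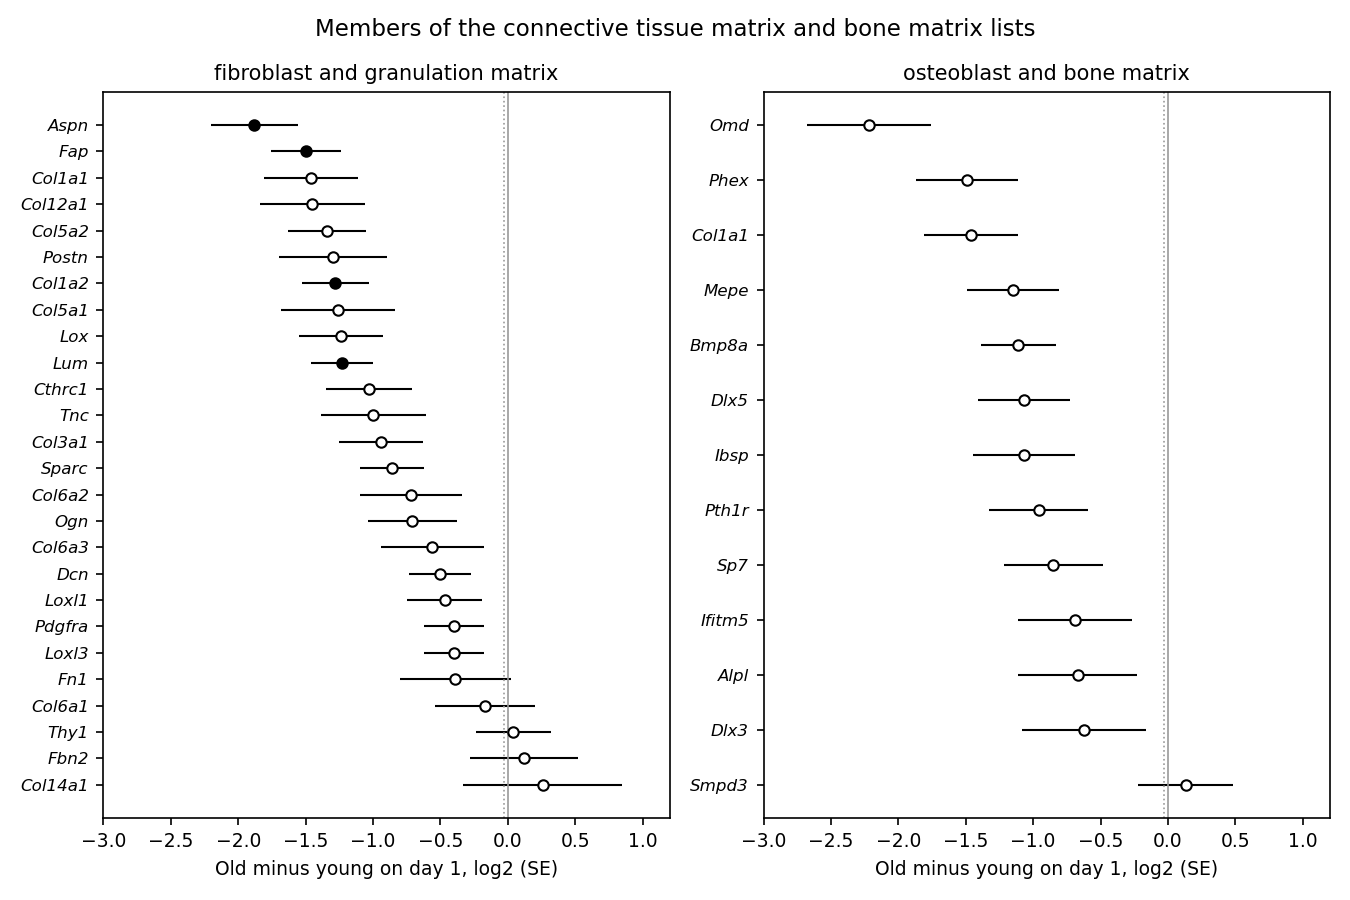
Difference of old minus young callus on day 1, in log2 units with its SE, for the 26 measured genes of the connective tissue matrix list and the 13 of the osteoblast list. Filled points were called by limma, open points were not, the solid line is 0 and the dotted line is the median of all genes at -0.031, and 23 of the 26 and 12 of the 13 points lie below 0.

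Genes of bone-forming cells had a median of -1.07, the lowest of the 46 lists with at least 5 measured genes, but not under every processing: it was -0.71 as deposited, -0.93 with arrays centred on their medians and -0.67 with a pseudocount of 64, where the matrix list stood at -0.95, -1.17 and -0.80. Of 13 osteoblast and bone matrix genes, limma called 0, with 9 lower and 0 higher at an unadjusted p under 0.05, which held for 6.73% (lower) and 4.23% (higher) of all genes. For 9 of the 13, beside 7.21% of all genes, all old arrays lay below all young arrays, 12 differences were below 0. Omd, which encodes osteomodulin, a proteoglycan of mineralised matrix, was at 5.62, 6.74 and 5.80 in old and 8.06, 8.10 and 8.65 in young callus, a difference of -2.22 ± 0.46 (limma, adjusted p = 0.053). Phex, an endopeptidase of osteoblasts and osteocytes that controls phosphate handling, differed by -1.49 ± 0.38 (limma, adjusted p = 0.111), Mepe, a matrix phosphoglycoprotein, by -1.15 ± 0.34 (limma, adjusted p = 0.165) and Bmp8a, a bone morphogenetic protein, by -1.11 ± 0.28 (limma, adjusted p = 0.106). The groups did not overlap for any of these 4 genes. The summed signal of the list was 5170, 7400 and 9550 in old and 14800, 16400 and 29000 in young callus, and the scores were -0.62, -0.37 and -0.43 against 0.16, 0.45 and 0.81. Col1a1, a bright gene, is in both this list and the connective tissue matrix list, so their sums are not separate. Phex and Mepe are also in the osteocyte list.

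Osteocyte, osteoclast and cartilage lists moved less as a whole. Dmp1, a phosphoprotein of osteocytes, was at 7.84, 10.24 and 10.58 in old and 11.32, 10.91 and 11.60 in young callus (-1.72 ± 0.53; limma, adjusted p = 0.176), with old replicate 1 well below the other 5 arrays. The 8 osteocyte genes had 0 calls with limma, 3 lower and 0 higher at an unadjusted p under 0.05, beside 6.73% and 4.23% of all genes, and a median of -0.20. The same shares of all genes apply to the unadjusted counts of the lists below. Of 13 osteoclast genes 1, Ctsk, was called lower, beside 0.217% of all genes, and the median was -0.20. Acp5, the tartrate-resistant acid phosphatase, was at 7.19, 8.99 and 8.32 in old and 9.27, 9.89 and 9.73 in young callus (-1.46 ± 0.36; limma, adjusted p = 0.101). Of 21 chondrocyte genes 1, Col11a1, was called lower, and 5 had all old arrays below all young arrays, beside 0.217% and 7.21% of all genes. Their median was -0.18. Col2a1, the main collagen of cartilage, was at 5.81, 4.81 and 6.03 in old and 7.56, 7.41 and 7.29 in young callus and was not called (-1.87 ± 0.62; limma, adjusted p = 0.203). Col10a1, the collagen of hypertrophic cartilage, was at 4.14 to 5.45 on the 6 arrays, close to the value of 4 that a signal of 0 gives before normalisation.

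Signalling genes were sorted by role. Among 23 Wnt genes, 1 was called lower and 0 higher, beside 0.217% and 0.0232% of all genes. All old arrays lay below all young arrays for 8 and above them for 2, beside 7.21% and 5.47% of all genes, and the median was -0.34. Of the secreted Wnt modulators, Wif1, a Wnt inhibitor, was not called at -1.47 ± 0.40 (limma, adjusted p = 0.136) nor was Dkk3, a Dickkopf family member, at -1.29 ± 0.37 (limma, adjusted p = 0.147). Axin2, a feedback target of β-catenin, was at 6.38, 6.78 and 7.08 in old and 5.94, 5.60 and 5.81 in young callus (0.96 ± 0.33; limma, adjusted p = 0.224). Lef1, a nuclear partner of β-catenin, was at 6.86, 6.79 and 6.75 in old and 6.15, 5.51 and 6.21 in young callus (0.85 ± 0.28; limma, adjusted p = 0.206). These are the 2 members of the list with every old array above every young array.

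Of 24 genes of FGF, IGF, PDGF and VEGF signalling, 1, the ligand Pdgfc, was called lower, beside 0.217% of all genes, and the median was -0.16. Pgf, the placental growth factor, was at 4.49, 4.57 and 5.77 in old and 6.58, 6.42 and 7.16 in young callus without a call (-1.78 ± 0.49; limma, adjusted p = 0.139). Fgf10, a mesenchymal ligand, was at 6.07, 6.08 and 6.10 in old and 5.15, 5.00 and 5.60 in young callus (0.83 ± 0.30; limma, adjusted p = 0.261). Of 26 genes of BMP and TGF-β signalling limma called 0, with 5 lower and 1 higher at an unadjusted p under 0.05, beside 6.73% and 4.23% of all genes, and a median of -0.21. The ligand Tgfb2 differed by -0.92 ± 0.27 (limma, adjusted p = 0.153) and the ligand Bmp4 by 0.72 ± 0.22 (limma, adjusted p = 0.172), each without overlap between the groups.

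Neutrophil genes, the most typical of the haematoma, varied more among the old arrays than between the ages. Of 19 neutrophil genes limma called 0, with 0 at an unadjusted p under 0.05 in either direction, and the median was 0.11. Their scores were -0.89, 0.71 and 0.41 in old replicates 1 to 3 and between -0.11 and 0.11 in young callus. S100a8, a calcium-binding alarmin of neutrophils, had a mean level of 14.26 ± 0.41 (SD, n = 3) in old and 14.44 ± 0.02 in young callus. Of 22 macrophage and monocyte genes limma called 0, with 1 lower and 1 higher at an unadjusted p under 0.05, and the median was 0.03. Cd163, the haemoglobin scavenger receptor of macrophages, was at 6.65, 7.52 and 7.15 in old and 8.48, 8.47 and 8.04 in young callus without a call (-1.22 ± 0.35; limma, adjusted p = 0.152).

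Inflammatory genes were not called either. Of 18 cytokine and chemokine genes limma called 0, with 1 lower and 0 higher at an unadjusted p under 0.05, 14 differences were above 0, and the median was 0.37. Il1b, a cytokine of activated myeloid cells, was at 9.29, 10.79 and 10.82 in old and 9.76, 9.07 and 10.07 in young callus. Cxcl2, a neutrophil attractant, was at 9.37, 10.86 and 11.60 in old and 9.71, 9.21 and 10.43 in young callus. Il6 was at 8.06, 10.10 and 10.49 in old and 10.06, 9.36 and 10.89 in young callus. For each of these 3 genes the groups overlapped, and old replicate 1 was the lowest old array. Of 20 interferon response genes limma called 0, with 0 lower and 3 higher at an unadjusted p under 0.05, 19 differences were above 0, and the median was 0.40. Oasl2, an interferon-induced gene, was at 8.32, 7.43 and 7.70 in old and 6.99, 6.54 and 7.33 in young callus, a difference of 0.86 ± 0.37 (limma, adjusted p = 0.346), with every old array above every young one.

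Lists of proliferating and marrow cells had negative medians without a call. Of 27 cell cycle genes limma called 0, with 2 lower and 0 higher at an unadjusted p under 0.05, and 26 differences were below 0 with a median of -0.41. The cell cycle scores were -0.80, 0.61 and -0.42 in old and 0.35, 0.37 and -0.08 in young callus, so that old replicate 2 was the highest of the 6 arrays and the groups overlapped. Old replicate 2 was also the highest in erythroid scores, at -0.61, 0.72 and -0.73 in old and 0.48, 0.32 and -0.14 in young callus, with 0 of 16 genes called by limma, 0 at an unadjusted p under 0.05 and a median of -0.46. B cell scores were -0.62, 0.30 and -0.42 in old and 1.04, -0.06 and 0.01 in young callus, with 0 of 15 genes called by limma, 2 lower and 0 higher at an unadjusted p under 0.05 and a median of -0.40.

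**Figure D3:**
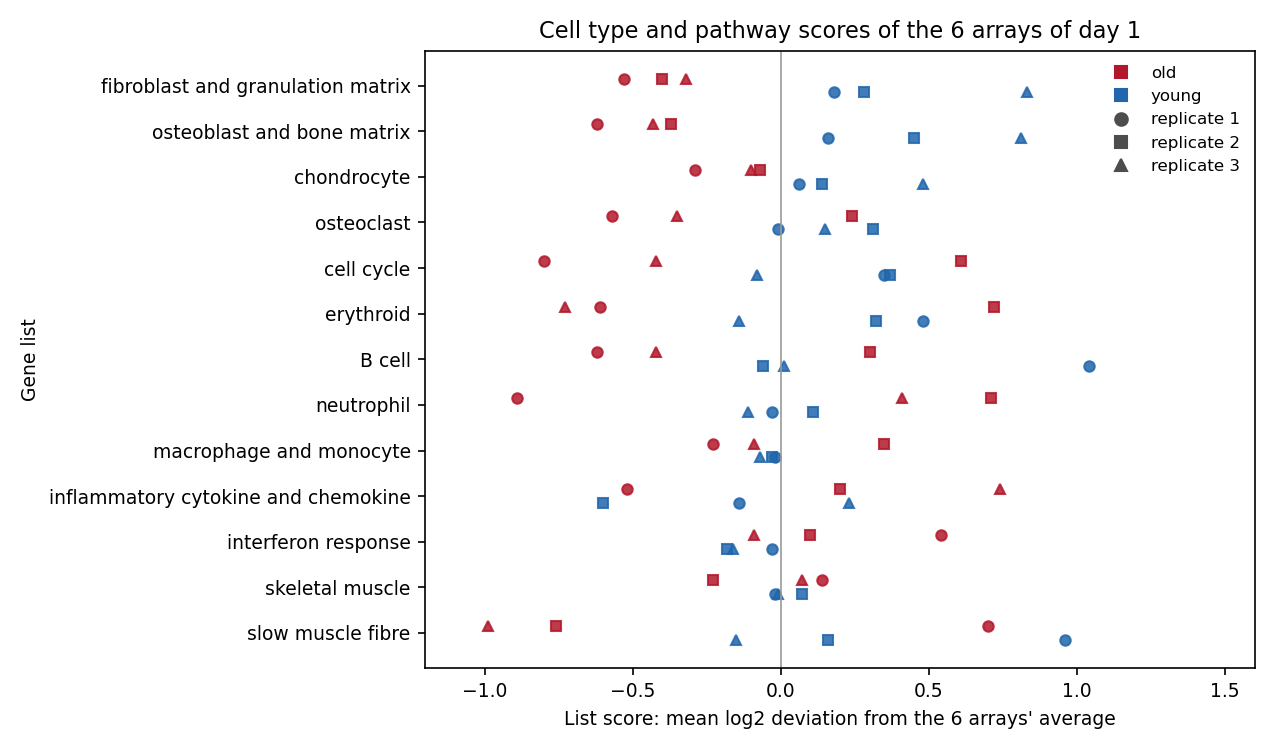
List score on the horizontal axis for each old (red) and young (blue) array. The score is the median over a list's genes of their log2 deviation from their average over the 6 arrays of day 1, although the axis label says mean. The scores of the connective tissue matrix list do not overlap between the ages (-0.53 to -0.32 against 0.18 to 0.83), while the neutrophil scores of the old arrays run from -0.89 to 0.71 around those of the young ones.

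Skeletal muscle, which surrounds the femur, was present in every array. The summed signal of 22 skeletal muscle genes was 453000, 261000 and 400000 in old and 288000, 321000 and 352000 in young callus, with a median difference of -0.01 and 0 genes called by limma or at an unadjusted p under 0.05. All 12 slow fibre genes had a difference below 0, with a median of -0.64, 0 called by limma and 0 at an unadjusted p under 0.05, and their scores were 0.70, -0.76 and -0.99 in old and 0.96, 0.16 and -0.15 in young callus. The groups thus overlapped, and replicate 1 was the highest array of each age. Of 22 endothelial genes limma called 0, with 2 lower and 1 higher at an unadjusted p under 0.05 and a median of -0.01. Of the 5 measured skin genes limma called 0, with 2 higher at an unadjusted p under 0.05. Krt5, a keratin of basal epidermis, was at 7.05, 6.25 and 6.61 in old and 5.69, 5.13 and 5.09 in young callus (1.33 ± 0.32; limma, adjusted p = 0.0963), and the summed skin signal was 561 to 742 in old and 280 to 478 in young callus. The part of muscle, marrow or skin in the matrix results was not tested.

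Some quality values moved with age on day 1. The ratio of 3' to 5' signal of Actb, which rises as RNA degrades, was 2.67, 2.52 and 2.28 in old and 2.10, 2.04 and 2.13 in young callus, without overlap. The 3' signal of cre, a bacteriophage control transcript added at hybridisation, was 40190, 28470 and 28670 in old and 24020, 19110 and 26240 in young callus, also without overlap, and array medians were 68.04 to 72.38 against 52.51 to 60.68. The 3' to 5' ratio of Gapdh overlapped between the ages, at 1.025, 1.039 and 0.961 in old and 0.827, 0.964 and 0.998 in young callus. With the Actb ratio as a covariate, chosen after seeing the data, limma called 4 probe sets and the median of the connective tissue matrix list was -0.67. With the cre signal in the model instead, likewise added, limma called 0, with 2790 at an unadjusted p under 0.05, and that median was -0.75. All 64 differences kept their direction in both fits. On day 3 the order of the means was the opposite. The mean Actb ratio was 1.51 ± 0.12 (SD, n = 3) in old and 2.15 ± 0.52 in young callus, and the mean cre signal was 14110 against 18780. The ages overlapped on day 3: young replicate 1, at 1.557 and 10670, lay among the old arrays, at 1.373 to 1.605 and 9110 to 17550. On day 5 the means were 1.596 against 1.438 and 10220 against 9033. Arrays of a group correlated at 0.893 to 0.949 and arrays of different ages at 0.902 to 0.937 on day 1.

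The next comparison asked whether the age difference of day 1 also held on days 3 and 5, which share no arrays with day 1. The old arrays of days 3 and 5 were also far below those of day 1 in Erdr1 and Mid1, genes of a strain check given further on. The part of this in the comparison between days was not tested. Of the 28 genes called lower on day 1, 10 had a difference below 0 on day 3, where 47.2% of all genes did, and 12 on day 5, where 50.7% did. Their median was 0.14 on day 3 and 0.00 on day 5, beside 0.023 and -0.004 over all genes. Since these genes were chosen for their size on day 1, smaller sizes on other days follow in part from the choice. The difference of day 1 minus the mean of those on days 3 and 5 was called for 32 probe sets (0.115%), 28 of them lower, and for 11 of the 28 genes. It contains the day 1 difference by which the 28 genes were chosen, so these 11 calls also follow in part from the choice.

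**Figure D4:**
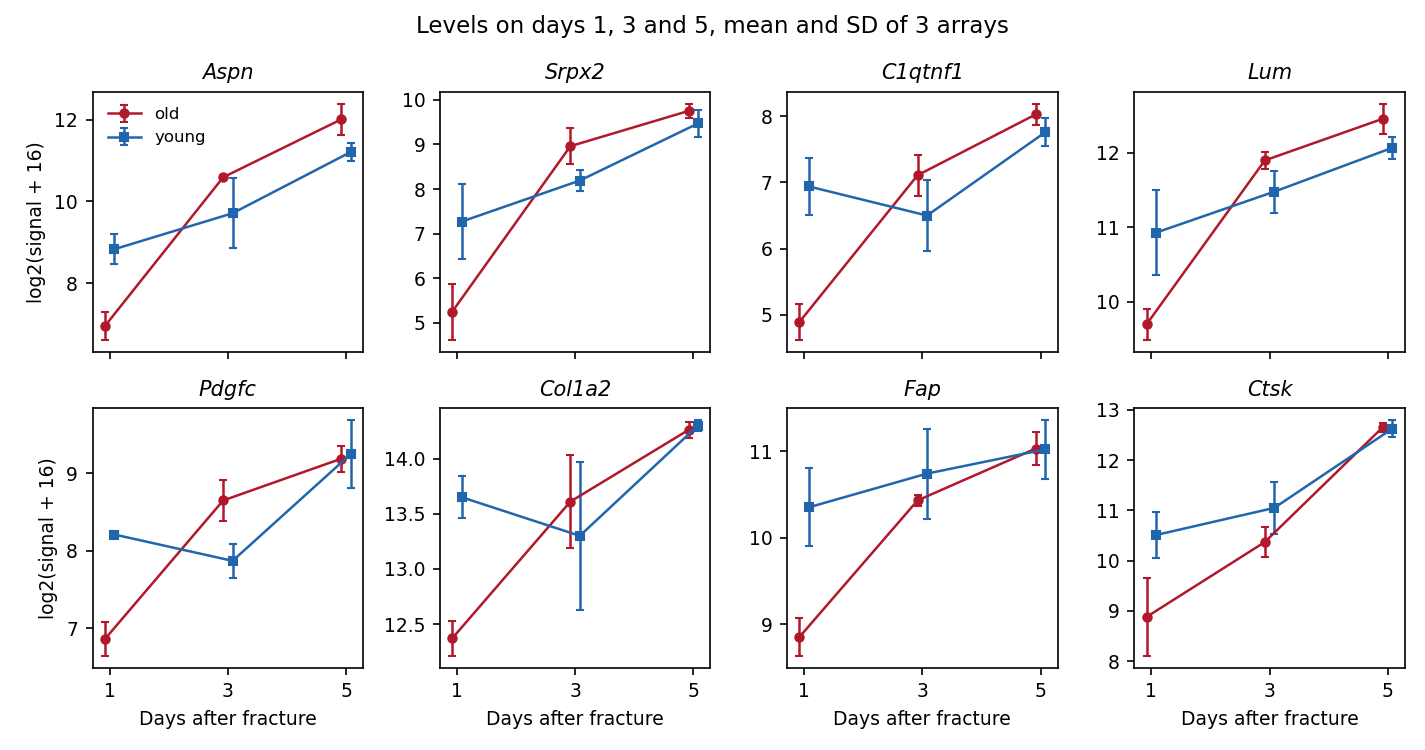
Mean level, as log2(signal + 16), with SD over 3 arrays, of 8 genes called lower on day 1, on days 1, 3 and 5 after fracture in old (red) and young (blue) mice, each panel with its own vertical scale. Old callus starts below young callus on day 1 and lies close to or above it by day 5, as for Aspn at 6.95 against 8.83 on day 1 and 12.01 against 11.21 on day 5.

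Aspn had the most negative such change among the genes called for it, with a mean level of 6.95 ± 0.34 (SD, n = 3) in old and 8.83 ± 0.36 in young callus on day 1, 10.59 ± 0.06 and 9.71 ± 0.86 on day 3, and 12.01 ± 0.38 and 11.21 ± 0.23 on day 5. Old callus was thus lower on day 1 and had the higher mean on both later days, with an interaction of -2.72 ± 0.40 (SE; limma, adjusted p = 0.0115). Srpx2 (-2.56 ± 0.44; limma, adjusted p = 0.0268) and C1qtnf1 (-2.49 ± 0.34; limma, adjusted p = 0.00618) gave the same pattern. Cdk5rap2, a centrosomal protein, and Emilin1, an elastic fibre glycoprotein, were called for the interaction at -2.41 ± 0.40 and -2.15 ± 0.37 (limma, adjusted p = 0.0216 and 0.028), although their day 1 differences of -1.54 ± 0.32 and -1.48 ± 0.30 just missed the threshold (limma, adjusted p = 0.0563 and 0.053). Plod2, Pdgfc, Bmp1 and Lum were called for the interaction as well, at -1.93, -1.70, -1.69 and -1.63. The other probe set of Aspn (-2.19), C1qtnf1 (-0.79), Plod2 (-1.14), Pdgfc (-1.90) and Bmp1 (-1.83) was not called for it (limma, adjusted p from 0.061 to 0.337). Fap (-1.35; limma, adjusted p = 0.077), Col1a2 (-1.41; limma, adjusted p = 0.0644) and Ctsk (-1.31; limma, adjusted p = 0.154) were not, although a dimmer Col1a2 probe set was called at -1.85.

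The median of the connective tissue matrix list was -0.90 on day 1, 0.87 on day 3 and 0.13 on day 5. The Actb ratio and the cre signal were higher in old callus on day 1 and had lower means in it on day 3, where the ages overlapped, as given above. With the Actb ratio as a covariate these medians were -0.67, 0.23 and 0.39, and with the cre signal they were -0.75, 0.68 and 0.21. That of the osteoblast list was -1.07, 0.17 and -0.30, that of the Wnt list -0.34, 0.22 and 0.11, and that of the skeletal muscle list -0.01, 1.18 and 0.31. The erythroid and neutrophil lists had their lowest medians on day 5, at -1.57 and -1.03.

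**Figure D5:**
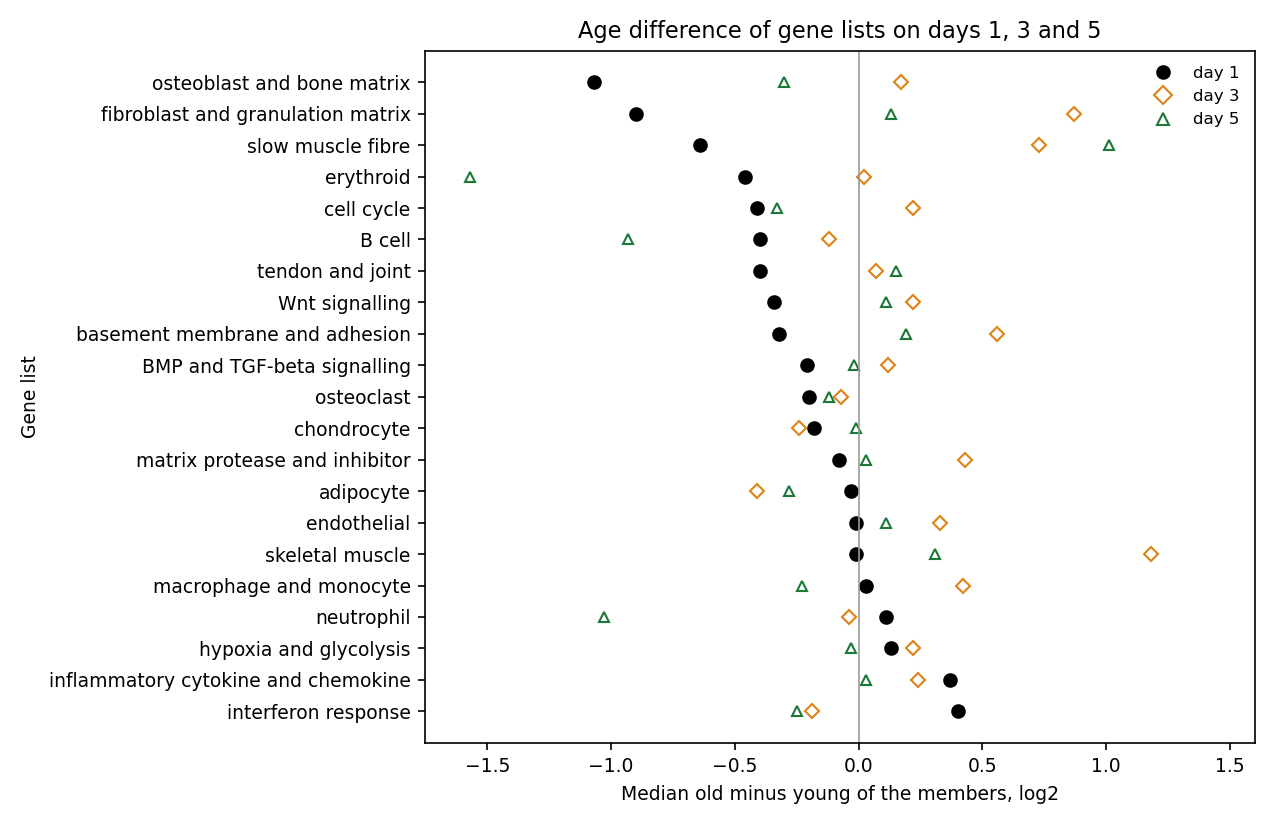
Median difference of old minus young callus over the members of 21 gene lists, in log2 units, on day 1 (black circles), day 3 (orange diamonds) and day 5 (green triangles), ordered by day 1. The osteoblast and connective tissue matrix lists are at -1.07 and -0.90 on day 1 and at 0.17 and 0.87 on day 3.

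The interaction count depended on the quality values and on the later days. With the Actb ratio in the model, 2 probe sets were called for the interaction and 0 of them lower (2985 at an unadjusted p under 0.05), and with the cre signal 5 were, 2 of them lower. Limma's adjusted p for Aspn was 0.0959 and 0.0418 in these fits, chosen after seeing the data, at -2.69 and -2.81. All 32 interactions kept their direction in both. With day 5 alone in place of days 3 and 5, 3 probe sets were called and 0 of them lower. It was between 12 and 20 without any 1 of young day 1 replicate 3, old day 3 replicates 1 and 2, old day 5 replicates 1, 2 and 3 and young day 5 replicates 1, 2 and 3. Leaving out old day 1 replicate 2 gave 164 calls, and leaving out replicate 3 of that group gave 68. The count became 67 when young day 1 replicate 1 was dropped and 54 when old day 3 replicate 3 was. Among the young arrays of day 3, dropping replicate 1 gave 564 and dropping replicate 2 gave 70.

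Genes whose signal is known to differ between mouse strains served as a check of the labels, and 0 of the 4 measured were called between the ages on day 1 by limma or passed at an unadjusted p under 0.05. H2-Ea, also on this list, did not pass the filter, with deposited signals from 1.595 to 53.84 over its probe sets on the 6 arrays of day 1. The strain of the mice was not settled by these values. Erdr1, which lies near the pseudoautosomal region, was at 11.86, 12.32 and 11.89 in old and 13.11, 11.97 and 12.85 in young callus on day 1, and its difference of -0.62 ± 0.36 was not called (limma, adjusted p = 0.522). On day 3 its mean was 7.04 ± 0.67 (SD, n = 3) in old and 11.52 ± 0.47 in young callus, and on day 5 it was 6.61 ± 0.57 and 11.79 ± 0.23. Mid1, a neighbouring gene, was at 9.79 ± 0.31 in old and 9.51 ± 0.84 in young callus on day 1, at 6.45 ± 0.24 and 9.11 ± 0.21 on day 3, and at 6.55 ± 0.05 and 9.24 ± 0.28 on day 5. Among probe sets with a named gene, Erdr1 and Mid1 gave the largest positive interactions, 4.21 ± 0.44 and 2.96 ± 0.37 (limma, adjusted p = 0.000292 and 0.00292). Another probe set, with no gene name, gave 3.85 ± 0.36. The other strain check genes went the opposite way: Nnt differed by -0.37, 0.97 and 1.14 on days 1, 3 and 5 and Wdfy1 by 0.09, 1.10 and 1.21, and a second Wdfy1 probe set was called for the interaction at -1.66 ± 0.29. The old arrays of days 3 and 5 thus had lower means than those of day 1 for Erdr1 and Mid1, and the part of this in the comparison between days was not tested. Xist, the X-inactivation transcript of female cells, was between 1076 and 1834 in signal on its brightest probe set, and the Y-linked genes gave at most 52.83.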

How the data were processed

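RNA was extracted with Trizol per the labels' protocols and measured on 18 single-colour arrays. The authors deposited an intensity for each of 45101 probe sets, already scaled so that the trimmed mean of each array is 150; the algorithm is not given in the sources used here. The medians of log2(intensity + 16) spanned 0.77 (5.7 to 6.47), more than the 0.5 allowed, so the 18 arrays were quantile normalised. The 27746 probe sets above the array median on at least 3 arrays were tested with limma 3.58.1 in R 4.3.3, in 1 fit to the 6 groups of age and day (17.3 degrees of freedom) with Benjamini-Hochberg adjustment at 0.05. Control probe sets (64) were left out.

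The platform annotation names 1 gene for 34958 probe sets, several for 932 and none for 9211, and 34754 symbols were updated through RefSeq tables. Genes (12921) are represented by the brightest tested probe set. Named genes were the 15 each way with the largest difference among those called without overlap, up to 5 members of each list with the largest differences, the 5 each way with the largest called interaction, and check genes. Col1a2, Lum, Axin2, Lef1, Bmp4, Col10a1, Col14a1, Fn1, Pdgfra, Thy1 and S100a8 were added after their values were seen, as were the genes said to be so in the text. The 48 lists hold 865 genes, of which 703 were measured. Members and lists were chosen with earlier results of these data known.

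No pairing by replicate number was seen: same-numbered deviations on day 1 correlated at -0.04, 0 and 0.09, and other-numbered ones at -0.09 to 0.09. With 3 arrays a group these values cannot exclude pairing. The number of arrays limits the precision. The fit was tested on simulated data. Alternatives changed the normalisation, pseudocount, filter, variance trend, array weights, replicate block, arrays used and, chosen after seeing the data, 2 quality covariates.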

Additional observations from a re-analysis of the deposited data

Results flagged for a closer look

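For 18 genes the age difference on day 1 itself differed from the mean age difference of days 3 and 5, by limma's interaction term with an adjusted p under 0.05. It was negative, with old callus relatively lower on day 1, for Aspn (-2.72), Srpx2 (-2.56), C1qtnf1 (-2.49), Cdk5rap2 (-2.41), Emilin1 (-2.15) and Ngef (-2.14). It was also negative for Plod2 (-1.93), Snx7 (-1.92), Pdgfc (-1.70), Bmp1 (-1.69), Lum (-1.63) and Rrp9 (-1.55). B3gnt9 (-1.54), Csrp2 (-1.41) and Msantd2 (-1.27) complete the negative group. It was positive for Foxl2 (1.54), Mid1 (2.96) and Erdr1 (4.21). With the Actb ratio in the model, limma called 0 probe sets lower for the interaction, so every negative gene above lost its call. Limma's adjusted p was then 0.0959 for Aspn and 0.158, 0.0897, 0.169 and 0.196 for Srpx2, C1qtnf1, Cdk5rap2 and Emilin1. Foxl2 and Mid1 were not called either (limma, adjusted p = 0.19 and 0.0559), while Erdr1 was (limma, adjusted p = 0.00353). With the cre signal 2 probe sets were called lower, and with day 5 alone as the later day 0 were. For Mid1 and Erdr1 the day 1 difference was not called, and the difference lay on days 3 and 5. Both belong to the strain check, and the old arrays of days 3 and 5 had lower means of them than those of day 1. The part of this in the other interactions was not tested.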

How the results depend on the processing

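Against 64 probe sets called on day 1, limma called 6 on the values as deposited, 112 with a pseudocount of 1, 23 with the filter at the 75th percentile, 18 with array weights, 0 with only the 6 arrays of day 1 (2060 at an unadjusted p under 0.05), 4 after adding the Actb ratio to the model and 0 after adding the spike-in (2790 at an unadjusted p under 0.05). Leaving out 1 array of day 1 gave 10 to 322. The replicate block, although no pairing by number was seen, gave 44 calls on day 1, 16 for the interaction, and list medians of -0.90 for matrix and -1.07 for osteoblast genes. The share of calls that were lower was 87.5%, against 100% as deposited, 96.8% with arrays centred on their medians and 64.3% with a pseudocount of 64. Every one of the 64 kept its sign wherever it was tested.

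Against 32 interaction calls, the count was 3 with day 5 alone, 242 with centred arrays, 60 and 49 with pseudocounts of 1 and 64, 68 with trend=FALSE, 286 with array weights, 2 after adding the Actb ratio, 5 after adding the spike-in, and 12 to 564 without 1 array. The osteoblast median of -1.07 was -0.71 as deposited, -0.67 with a pseudocount of 64 and -1.19 to -0.75 without 1 array. The matrix median of -0.90 was -1.17 with centred arrays, which move the median of all genes to -0.232, and -1.11 to -0.65 without 1 array. The cause of these changes was not tested. Of 335 values of 18 named genes under alternatives, 190 stayed past the threshold, 145 did not and 0 reversed.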
